A study of Mus musculus with 7 samples.

Results

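The histone genes are the genes of the linker histones (H1) and the core histones (H2A, H2B, H3 and H4) that go by the symbols H1f, H2ac, H2bc, H3c, H4c and H4f, most of them the former Hist1 to Hist4 genes. They were chosen by symbol from the probe sets annotated to a single gene, pseudogenes were left out, and each gene was represented by its brightest probe set on average. This gave 30 of the 22180 genes measured: 8 of H1, 6 of H2A, 8 of H2B, 8 of H4 and 0 of H3, whose probe sets all name several genes. Of the 30, 21 lie on chromosome 13, 5 on chromosome 3, 3 on chromosome 6 and 1 on chromosome 15. A gene is called readable here when its mean log2 signal over all arrays reached 5.16, the median of that mean over all genes, and dim otherwise. By this measure 14 histone genes were readable (2 of H1, 4 of H2A, 4 of H2B and 4 of H4) and 16 were dim.

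The arrays measured RNA from the corpus of the stomach, the gland region that makes acid, in Atp4b-DTR mice between 8 and 12 weeks of age. All groups carry the Atp4b-DTR transgene, named for the gene of the proton pump's beta subunit and for the diphtheria toxin receptor, and littermates were controls when possible. Toxin groups received 225 ng of diphtheria toxin per mouse by intraperitoneal injection daily for 3 days and were sampled 24, 36, 48 or 72 h after the last dose, and the control received saline. The control, the 24 h group and the 36 h group had 1 array each, and the 48 h and 72 h groups had 2 each. The toxin is aimed at parietal cells, the acid-secreting cells, and the design follows the corpus as they are lost and return.

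Most histone genes are replication-dependent: they are transcribed in S phase, when new DNA must be wrapped, and their short, intronless messages end in a stem-loop bound by SLBP instead of a poly(A) tail. Linker histone H1 binds the DNA between nucleosomes, and pairs of H2A with H2B and of H3 with H4 form the nucleosome core. In the corpus, dividing cells lie mainly in the isthmus of the gland. In a bulk sample, fewer cells of a type and less RNA per cell cannot be told apart, and this holds for every value below.

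Several features of the arrays moved with the groups, and their part in the results was not tested. Parietal cell markers had a median difference from the control of -1.53 on the log2 scale at 24 h, with all 10 lower, and Atp4b, which defines these cells, had log2 signals of 12.94 on the control and 10.68 at 24 h. Xist was high on the control (8.13) and the 24 h array (9.17) and ran from 2.70 to 3.27 on the others, with Eif2s3y opposite. At 36 to 72 h, sex pattern and toxin therefore cannot be told apart in differences from the control. Between the 24 h array and the later toxin arrays, sex pattern and time cannot be told apart either. Krt4, a keratin of the forestomach, was low on the first 48 h array (4.21) and the second 72 h array (4.12) against 6.16 to 8.51 elsewhere. Of 8 measured B and plasma cell markers 6 were dim, as were 6 of 7 T cell markers and 6 of 9 macrophage and neutrophil markers, with median differences at 24 h of 0.13, 0.21 and 0.13, and the 2 measured erythroid markers had a median of 0.12. Single markers stood above those medians: Jchain, a plasma cell gene, had log2 signals of 6.89 (control), 8.28 (24 h) and 5.39 (36 h). Cd68, a macrophage gene, was 0.83 above the control at 24 h, and Ly6g, a neutrophil gene that was dim, 1.04 above it. Other readable markers were below the control at 24 h: Adgre1 by -0.06 and Csf1r by -0.23 (macrophage), Cd4 by -0.23 (T cell) and Sdc1 by -0.10 (plasma cell).

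At 24 h, 13 of the 14 readable histone genes were above the control and 1 was below. Of the 11090 readable genes of the series, 4853 were above it and 5704 below. The median difference of the 14 from the control was 1.12 on the log2 scale at 24 h (range -0.58 to 2.47), against -0.01 for the 11090 readable genes of the series. It was 0.31 at 36 h, 0.30 and 0.28 on the 48 h arrays, and 0.36 and 0.24 on the 72 h arrays. At 24 h, 7 of the 14 were at least 2-fold above the control, against 1.99% of readable genes. The 7 were H4f16, H2ac1, H2ac20, H4c9, H2ac10, H4c12 and H2bc18. H2ac1 was readable only through its 24 h value, with a mean of 4.90 over the other 6 arrays. When readable genes were chosen by the mean of those 6 arrays (threshold 5.15), 13 histone genes remained, with a median of 0.84 at 24 h and 6 at least 2-fold higher, against 1.96% of genes so chosen. In 8 of the 14 the control was the lowest and the 24 h array the highest of the 7 arrays, against 5.81% of readable genes. With 1 array at 24 h and 1 control, these differences have no replicate check.

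**Figure D1:**
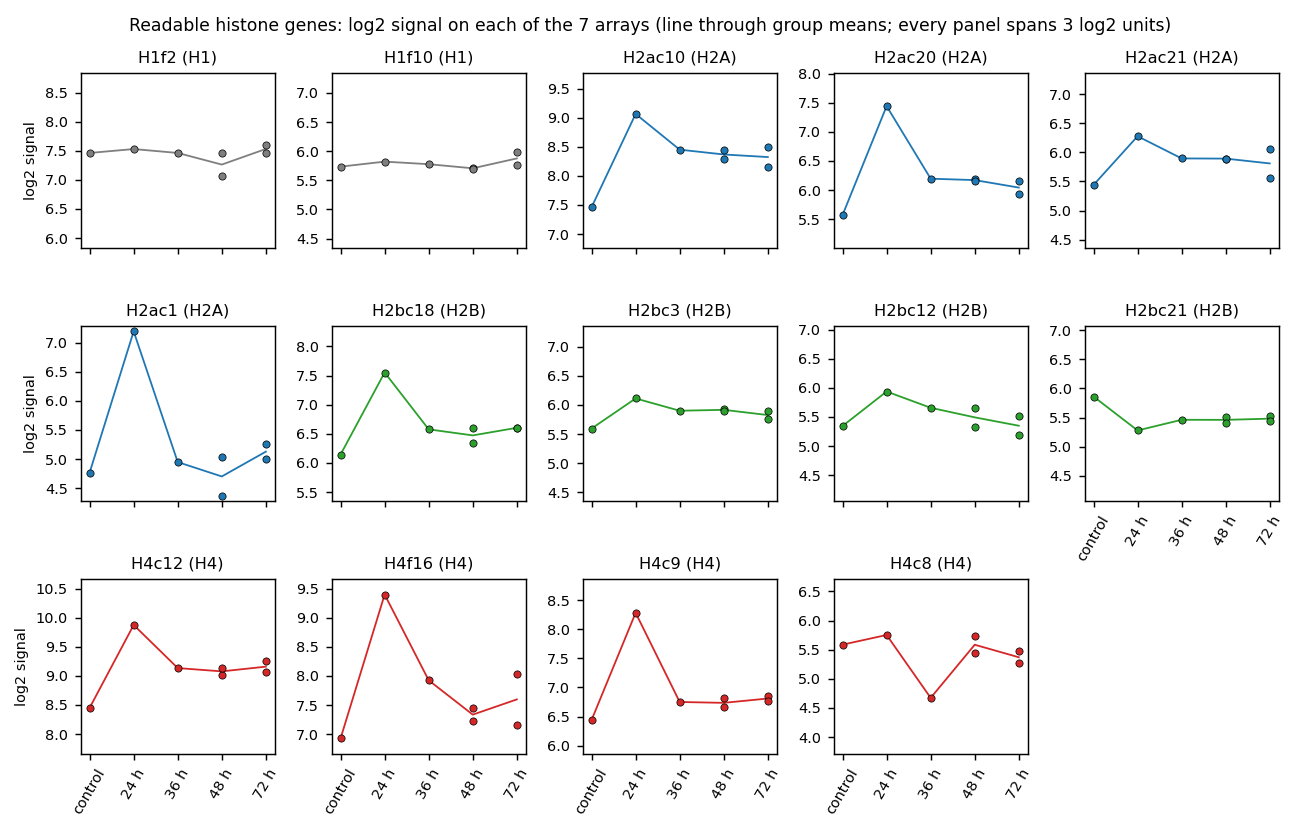
Log2 signal (y axis) of the 14 readable histone genes on each of the 7 arrays by group (x axis), with points for arrays and a line through group means, coloured by histone class. Every panel spans 3 log2 units, and H1f2 and H1f10 are nearly level. In 8 of 14 panels the control is the lowest point and the 24 h point the highest, against 5.81% of readable genes. H2ac1 was readable only through its 24 h value.

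The promoters of 6 readable genes are shown first because they carry the contrast among the members. H4f16, H4c9, H2ac1, H2ac20 and H2bc18 were at least 2-fold above the control at 24 h, and H1f2 was not. Of these, H2ac1 counted as readable only through that array. Each window holds 250 bases before and 50 after the start site, read 5′ to 3′ in the direction of the gene, from RefSeq on GRCm38.p6. The windows are chr6:136804382-136804681 (minus strand) for H4f16, chr13:22041313-22041612 (minus strand) for H4c9 and chr13:23934187-23934486 (plus strand) for H2ac1. Those of the other genes are chr3:96220831-96221130 (minus strand) for H2ac20, chr3:96269450-96269749 (plus strand) for H2bc18 and chr13:23738557-23738856 (plus strand) for H1f2. Capitals mark 3 motifs searched on both strands: CCAAT, the box bound by NF-Y, TATAAA, the letters of the TATA box, and ATTTGCAT, the octamer known from H2B promoters and bound by Oct1. Matches were marked at any position, and that of H4c9 starts at -137 from the start site. TATA-like letters other than TATAAA stay unmarked, as in H4f16 and H1f2. A match on the minus strand appears as its reverse complement, and no matches overlapped.
H4f16 promoter: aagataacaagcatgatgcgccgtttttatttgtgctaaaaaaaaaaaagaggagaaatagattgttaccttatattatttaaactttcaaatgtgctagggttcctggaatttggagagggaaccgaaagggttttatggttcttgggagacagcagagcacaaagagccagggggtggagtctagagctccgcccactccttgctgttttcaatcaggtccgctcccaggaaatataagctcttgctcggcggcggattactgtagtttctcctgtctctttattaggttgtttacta
H4c9 promoter: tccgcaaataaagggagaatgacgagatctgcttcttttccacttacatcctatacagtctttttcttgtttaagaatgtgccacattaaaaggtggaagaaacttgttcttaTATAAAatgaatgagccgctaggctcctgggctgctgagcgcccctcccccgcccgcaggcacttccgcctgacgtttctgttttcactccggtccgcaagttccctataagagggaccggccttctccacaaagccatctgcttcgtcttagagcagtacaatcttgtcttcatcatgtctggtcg
H2ac1 promoter: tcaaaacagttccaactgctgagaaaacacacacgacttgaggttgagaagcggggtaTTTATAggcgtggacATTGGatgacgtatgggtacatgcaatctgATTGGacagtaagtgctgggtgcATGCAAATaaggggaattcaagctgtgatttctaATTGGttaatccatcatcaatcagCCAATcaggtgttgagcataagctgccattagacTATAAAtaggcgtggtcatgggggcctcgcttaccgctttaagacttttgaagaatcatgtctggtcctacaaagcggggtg
H2ac20 promoter: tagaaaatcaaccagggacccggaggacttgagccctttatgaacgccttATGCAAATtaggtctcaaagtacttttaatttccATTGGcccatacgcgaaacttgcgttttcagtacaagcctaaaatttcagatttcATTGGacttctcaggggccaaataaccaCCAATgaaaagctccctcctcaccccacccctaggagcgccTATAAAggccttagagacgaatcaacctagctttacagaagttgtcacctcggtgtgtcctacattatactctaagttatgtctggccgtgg
H2bc18 promoter: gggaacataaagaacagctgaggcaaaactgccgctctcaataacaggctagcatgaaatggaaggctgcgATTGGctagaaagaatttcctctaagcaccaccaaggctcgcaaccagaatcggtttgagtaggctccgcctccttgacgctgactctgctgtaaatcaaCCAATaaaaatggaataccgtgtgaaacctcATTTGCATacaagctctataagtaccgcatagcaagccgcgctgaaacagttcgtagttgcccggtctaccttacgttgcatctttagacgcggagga
H1f2 promoter: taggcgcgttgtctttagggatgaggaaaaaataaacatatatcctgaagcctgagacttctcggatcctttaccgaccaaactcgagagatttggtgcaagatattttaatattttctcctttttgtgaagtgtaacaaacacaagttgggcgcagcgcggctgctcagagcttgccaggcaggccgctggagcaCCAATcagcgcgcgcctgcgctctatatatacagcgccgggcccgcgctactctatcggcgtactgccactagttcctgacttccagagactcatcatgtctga

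Of the 30 genes, 28 had a promoter in the table, and H2bc21 and H4c14 had none. CCAAT was found in 20 of the 28, against 37.4% of all 32851 promoters of this length. TATAAA was found in 16 (13.6% of all promoters) and ATTTGCAT in 8 (1.74%). The motifs divided by class: CCAAT was in 13 of 13 H2A and H2B promoters, in 6 of 8 of H1 and in 1 of 7 of H4, and the octamer was in 8 of 13 of H2A and H2B and in 0 of 15 of H1 and H4. These are not all separate stretches of DNA. The windows of H2ac1 and H2bc1 share 220 bases and those of H2ac12 and H2bc12 share 277. A match in a shared stretch was counted for both genes. The genes with the highest 24 h differences had opposite motif content: H4f16, at 2.47, held none of the 3 motifs and H2ac1, at 2.43, held all of them. H1f2 held CCAAT, with its first base at position -54 from the start site, and differed by 0.07. These matches describe the letters of the windows and are not measured binding sites.

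The 2 readable linker histones were near the control at 24 h. H1f2, an H1 subtype common in adult tissue, had log2 signals of 7.46 (control), 7.53 (24 h), 7.46 (36 h), 7.46 and 7.06 (48 h), and 7.46 and 7.60 (72 h). H1f10, a replication-independent H1, had 5.74 (control), 5.82 (24 h), 5.78 (36 h), 5.72 and 5.70 (48 h), and 5.77 and 5.98 (72 h). Their 24 h differences, 0.07 and 0.09, were smaller than the larger difference within their replicate pairs, 0.40 for H1f2 and 0.21 for H1f10. In the limma fit, H1f2 differed from the control by -0.20 ± 0.21 (SE) at 48 h and 0.07 ± 0.21 at 72 h, with adjusted p of 0.744 and 0.946. H1f10 differed by -0.03 ± 0.11 and 0.14 ± 0.11, with adjusted p of 0.967 and 0.652. H1f2 took only 4 distinct values on the 7 arrays, ties that are in the deposited values. The other 6 H1 genes were dim.

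All 4 readable H2A genes were above the control at 24 h, with a median of 1.74. That median includes H2ac1, which was readable only through its 24 h value. The others differed by 1.60 (H2ac10), 1.87 (H2ac20) and 0.84 (H2ac21). H2ac10 had log2 signals of 7.46 (control), 9.06 (24 h), 8.45 (36 h), 8.28 and 8.45 (48 h), and 8.50 and 8.14 (72 h). H2ac20 had 5.57 (control), 7.44 (24 h), 6.20 (36 h), 6.19 and 6.16 (48 h), and 6.16 and 5.93 (72 h). Both encode replication-dependent H2A, were highest at 24 h (3.03-fold and 3.66-fold the control), and had every later array between the control and the 24 h array. H2ac21, another H2A gene, followed the same order with 5.44 (control), 6.28 (24 h), 5.90 (36 h), 5.89 on each array (48 h), and 6.06 and 5.55 (72 h). Its second probe set was dim and was 0.20 above the control at 24 h.

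H2ac1, which encodes the testis variant TH2A, had a different course. Its log2 signal was 4.77 on the control and 7.19 at 24 h, a 5.38-fold difference, and then 4.95 (36 h), 4.37 and 5.03 (48 h), and 5.0 and 5.26 (72 h). The 24 h array alone stood apart, and the 48 h arrays lay on both sides of the control. It was at or above the readable threshold of 5.16 on 2 arrays only, at 24 h and on the second 72 h array. With a mean of 5.22 it was the gene just inside the readable threshold, followed by H4c8 at 5.42; H1f3 at 4.65 and H4c14 at 4.46 were just outside. H2bc1, which encodes the testis variant TH2B, is its divergent neighbour and shares 220 bases of the promoter window with it; H2bc1 was dim and was 0.15 above the control at 24 h.

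The H2B genes were divided. H2bc18 had log2 signals of 6.14 (control), 7.55 (24 h), 6.58 (36 h), 6.35 and 6.60 (48 h), and 6.61 and 6.60 (72 h). H2bc3 had 5.60 (control), 6.11 (24 h), 5.90 (36 h), 5.93 and 5.90 (48 h), and 5.90 and 5.75 (72 h). In both, every toxin array was above the control and the 24 h array was the highest, by 1.41 for H2bc18 and 0.52 for H2bc3. H2bc12 had 5.34 on the control, 5.94 (24 h) and 5.66 (36 h), but 5.66 and 5.33 (48 h) and 5.52 and 5.18 (72 h), so that its later pairs lay on both sides of the control.

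H2bc21 went the other way. This H2B gene, whose product in mouse is the variant H2BE of olfactory neurons, had log2 signals of 5.86 (control), 5.28 (24 h), 5.46 (36 h), 5.51 and 5.41 (48 h), and 5.53 and 5.44 (72 h). The control was the highest of the 7 arrays and the 24 h array the lowest, at -0.58. It was the only readable histone gene below the control at 24 h. On chromosome 3 the RefSeq gene order places H2bc21 next to H2ac20, which was 1.87 above the control on the same array. H2bc21 spans 2667 bases in that table, and the 7 genes at least 2-fold higher at 24 h span 403 to 504 bases. The other readable genes under 0.2 at 24 h span 435 bases (H4c8, at 0.17), 725 (H1f2) and 1062 (H1f10). The part of gene length in the differences was not tested.

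Of the 4 readable H4 genes, all of which encode H4, 3 were at least 2-fold above the control at 24 h. H4f16, which lies on chromosome 6 outside the main cluster, had log2 signals of 6.93 (control), 9.40 (24 h), 7.92 (36 h), 7.22 and 7.45 (48 h), and 8.04 and 7.15 (72 h). H4c9 had 6.44 (control), 8.28 (24 h), 6.75 (36 h), 6.81 and 6.66 (48 h), and 6.86 and 6.76 (72 h). Both were lowest on the control and highest at 24 h (5.54-fold and 3.58-fold the control), but the later arrays of H4c9 lay within 0.42 of the control and those of H4f16 spread from 0.22 to 1.11 above it. On the 48 h and 72 h pairs, H4f16 was lower on both arrays where Krt4 was low, as were 4 of the 14 readable genes in all; 2 were higher on both and 8 were split. A second probe set of H4f16 was dim and was 0.36 above the control at 24 h.

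H4c12 had log2 signals of 8.45 (control), 9.87 (24 h), 9.13 (36 h), 9.02 and 9.13 (48 h), and 9.26 and 9.06 (72 h), with all 4 later replicate arrays and the 36 h array at least 0.57 above the control. H4c8 had 5.59 (control), 5.75 (24 h), 4.67 (36 h), 5.44 and 5.73 (48 h), and 5.27 and 5.47 (72 h), with no order by time. H4c8 neighbours H2ac10 on chromosome 13, and the pair differed from the control by 0.17 and 1.60 at 24 h.

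The 16 dim genes were mostly near the control. Their median difference from the control was 0.15 at 24 h (range -0.28 to 0.82, with 11 higher and 4 lower), 0.06 at 36 h, 0.00 on both 48 h arrays, and 0.04 and 0.06 at 72 h. Over all 22180 genes, 9939 were higher and 10334 lower at 24 h. No dim histone gene was 2-fold higher at 24 h, and the highest were H2bc14 at 0.82, H1f1 at 0.57 and H2ac12 at 0.57. H2ac12 shares 277 bases of its promoter window with the divergent H2bc12, which was 0.59 above the control. The single dim gene past 2-fold at 36 h was H1f5, at 1.20. The lowest value was that of H4c14, at -1.43 on the second 48 h array. At signals this low the array limits what a difference can show.

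**Figure D2:**
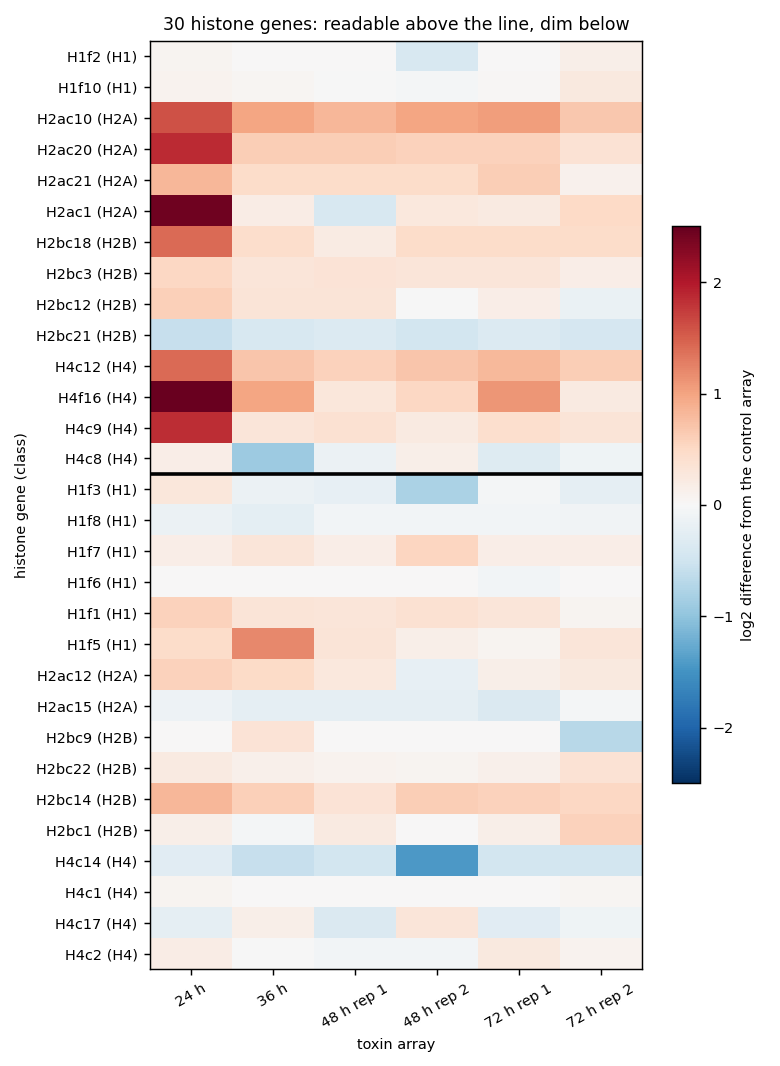
Log2 difference from the control array (colour) of the 30 histone genes (y axis, with class) on the 6 toxin arrays (x axis), readable genes above the line and dim genes below. The 24 h column holds the 7 readable genes at least 2-fold higher, among them H2ac1, readable only through that array. H2bc21 is below the control in every column.

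The spread within the replicate pairs gives the only measure of error. At 24 h, 10 of the 14 readable genes exceeded the control by more than the larger difference within their 48 h and 72 h pairs. The share of all readable genes was 24%. H2ac1, readable only through its 24 h value, is among the 10. H4f16 had the widest pair, 0.89 apart at 72 h, and its 24 h difference of 2.47 was larger than that. At 36 h, 0 of the 14 reached 2-fold, against 1.58% of readable genes. H4f16 and H2ac10 came nearest, with log2 differences of 0.996 and 0.988, just short of 1.

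At 48 h, both arrays were above the control in 8 of the 14 readable genes, against 31.1% of readable genes, and at 72 h in 10 of 14, against 35.3%. In limma, with a mean per group over all 7 arrays, no histone gene passed an adjusted p of 0.05 at 48 h (0% of all 22180 genes passed). At an unadjusted p under 0.05, 4 readable histone genes were higher, against 10.8% of readable genes, and 1 was lower, against 17.4%. At 72 h no histone gene passed the adjusted threshold either (0% of all genes), and 5 readable histone genes were higher at an unadjusted p under 0.05, against 10.7% of readable genes, with 1 lower, against 14.6%. Both comparisons share the lone control, which is assumed to vary like the pairs. The counts in both directions, 5 at 48 h and 6 at 72 h, depend on single arrays. They were lower when either 48 h array was left out, whereas the counts over all genes were higher. Leaving out 1 array of a pair leaves 1 array in that group.

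The 48 h differences nearest to the threshold were those of H4c12, H2ac20, H2bc21 and H2ac10. H4c12 differed from the control by 0.63 ± 0.12 (SE) at 48 h and 0.71 ± 0.12 at 72 h in limma, with adjusted p of 0.159 and 0.166. H2ac20 differed by 0.60 ± 0.12 and 0.47 ± 0.12, with adjusted p of 0.162 and 0.218. H2ac10 had the highest estimates, 0.91 ± 0.20 and 0.86 ± 0.20, with adjusted p of 0.175 and 0.20. All 4 arrays of 48 and 72 h were above the control in these 3 genes. H2bc21 was below the control on all 4, with estimates of -0.40 ± 0.08 and -0.38 ± 0.08 and adjusted p of 0.165 and 0.191.

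The remaining named genes were further from the threshold. H2bc3 differed by 0.32 ± 0.09 at 48 h and 0.23 ± 0.09 at 72 h (limma adjusted p of 0.212 and 0.329), and H2bc18 by 0.33 ± 0.13 and 0.46 ± 0.13 (0.326 and 0.246). H4c9, 3.58-fold higher at 24 h, differed by 0.30 ± 0.10 and 0.37 ± 0.10 (0.271 and 0.232). H4f16 differed by 0.41 ± 0.45 and 0.67 ± 0.45 (0.756 and 0.569), with the wide 72 h pair in its error. H2ac1 differed by -0.07 ± 0.35 and 0.36 ± 0.35 (0.990 and 0.727); without the first 48 h array its 48 h difference was 0.26.

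Between 72 h and 48 h few differences were measured. The arrays of both times were apart in 1 of the 14 readable genes, H1f10, against 36.5% of readable genes, and the median difference was 0.05. No gene of the series was called in this comparison (0% of all genes by limma). At an unadjusted p under 0.05 there were 0 readable histone genes, against 703 higher and 374 lower of the 11090 readable genes. The histone count moved when some single arrays were left out, as did the count over all genes. H1f10 was 0.17 ± 0.09 higher at 72 h, H4f16 differed by 0.26 ± 0.37 and H4c12 by 0.08 ± 0.10. Without the first 72 h array the last pair of estimates were -0.18 and -0.02.

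Over the 6 toxin arrays, the slope per 24 h had a median of -0.25 on the log2 scale. Slopes were negative in 11 of 14 readable histone genes, against 5562 of 11090 readable genes. H2ac1, readable only through its 24 h value, is among the 11. No gene was called (0% of all genes by limma, smallest adjusted p among the readable histone genes 0.539), and 3 readable histone genes had negative slopes at an unadjusted p under 0.05, against 6.21% of readable genes. These were H2ac20 at -0.51 ± 0.19, H2bc12 at -0.26 ± 0.09 and H2bc3 at -0.11 ± 0.05 per 24 h. The slope rests on the 24 h array: without it the median was 0.03 and the count 0. That array also differed from the other toxin arrays in Xist and Eif2s3y, so time and sex pattern cannot be told apart in the slope. The histone count also moved when any other single array was left out, as did the count over all genes.

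Genes that act with histones were followed for comparison. The S phase reference list holds genes of DNA replication and nucleotide supply, such as Mcm5, a subunit of the replicative helicase, and Rrm2, a subunit of ribonucleotide reductase. All 22 measured genes of the 24 listed, of which 20 were readable, were above the control at 24 h, with a median of 1.08. Of the 22, 14 were at least 2-fold higher, among them the dim Cdc45, against 1.99% of readable genes. Their median was then 0.70 (36 h), 0.73 and 0.57 (48 h), and 0.48 and 0.31 (72 h). On the 24 h array the readable histone median was 1.12, or 0.84 by the mean of the other 6 arrays. At 36 h and on the 48 h arrays the S phase median was above the histone medians of 0.31, 0.30 and 0.28; these differences between lists were not tested. Mcm5 had log2 signals of 6.06 (control), 7.52 (24 h), 7.07 (36 h), 6.95 and 6.98 (48 h), and 6.89 and 6.78 (72 h). Rrm2 had 5.71, 7.88, 7.28, 7.28 and 7.15, and 6.95 and 6.27 in the same order. In limma 0 of the 22 passed the adjusted threshold, and 16 were higher at 48 h (10.8% of readable genes) and 10 at 72 h (10.7%) at an unadjusted p under 0.05.

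**Figure D3:**
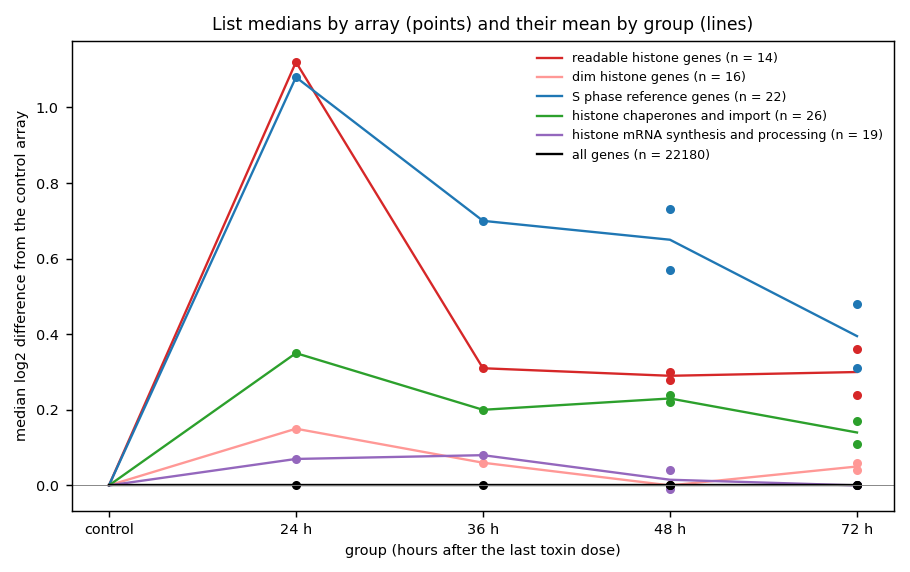
Median log2 difference from the control array (y axis) by group (x axis) for readable and dim histone genes, 3 lists of genes that act with them, and all genes; points are arrays and lines join the mean of the points in each group. At 24 h the readable histone median is 1.12 (0.84 without H2ac1, which was readable only through that array) and the S phase median 1.08, and at 36 h the S phase median is 0.70 and the histone median 0.31.

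Histone chaperones and import factors, which bind new histones and hand them to DNA, had a median of 0.35 at 24 h over 26 measured genes of 29 listed. The 3 at least 2-fold higher, against 1.99% of readable genes, were Mms22l at 1.59, Mis18a at 1.15 and Asf1b at 1.06. Asf1b, a chaperone of H3 and H4, had log2 signals of 5.81 (control), 6.88 (24 h), 6.47 (36 h), 6.50 and 6.42 (48 h), and 6.38 and 6.16 (72 h). Chaf1b, a subunit of the chromatin assembly factor CAF-1, was 0.81 above the control at 24 h, Nasp, a chaperone that keeps a store of H3 and H4, was 0.73 above it, and Hat1, which acetylates new H4, was 0.88 above it. At 48 h 9 of the 26 were higher and 1 lower at an unadjusted p under 0.05, and at 72 h 6 were higher and 2 lower; 0 passed limma's adjusted threshold. The shares of readable genes were 10.8% higher and 17.4% lower at 48 h, and 10.7% and 14.6% at 72 h.

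The list of histone mRNA synthesis and processing factors had a median of 0.07 at 24 h over 19 measured genes of 20 listed. Of the 19, 17 were readable, and 15 were higher and 4 lower. Of the 11090 readable genes, 4853 were higher and 5704 lower at 24 h. The median of the list was 0.00 at 48 h and at 72 h. Slbp, which binds the stem-loop of histone messages, was the highest of them at 24 h. Its log2 signals were 7.03 (control), 7.81 (24 h), 7.46 (36 h), 7.45 on each array (48 h), and 7.45 and 7.38 (72 h), with the control lowest and the 24 h array highest, as in 8 of the readable histone genes. It was 0.42 ± 0.06 above the control at 48 h and 0.39 ± 0.06 at 72 h, with limma adjusted p of 0.128 and 0.153. Npat, the coactivator of histone transcription, was 0.12 above the control at 24 h, and Casp8ap2, a component of the histone locus body, 0.14. Srrt, a partner of the nuclear cap-binding complex, was 0.60 above it at 24 h and 0.59 ± 0.05 at 48 h (limma adjusted p of 0.120). In this list 3 genes were higher and 2 lower at 48 h, and 3 higher and 0 lower at 72 h, at an unadjusted p under 0.05 (readable genes 10.8% and 17.4%, then 10.7% and 14.6%), and 0 passed the adjusted threshold.

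Histone variants with other symbols had a median of 0.60 at 24 h over 7 measured genes of 9 listed, 6 of them readable. H2ax, the H2A variant that marks DNA breaks when phosphorylated, had log2 signals of 7.85 (control), 9.93 (24 h), 9.10 (36 h), 8.96 and 9.05 (48 h), and 8.95 and 8.67 (72 h), with every toxin array above the control. It was 1.15 ± 0.15 above the control at 48 h in limma, with an adjusted p of 0.121. Cenpa, the H3 variant of centromeres, was 0.72 above the control at 24 h and H2az1, an H2A variant found at promoters, 0.60. H2az2, its close paralog, was -0.10 from it and Macroh2a1 0.34. At an unadjusted p under 0.05, 4 of the 7 were higher at 48 h (10.8% of readable genes) and 3 at 72 h (10.7%), and 0 passed the adjusted threshold. H3f3a and H3f3b were not analysed here.

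Many histone genes are so alike that a probe set names several of them, and 38 such probe sets hold a gene of the rule. They give no value for a single gene and are described by class. After probe sets with equal values were counted once, 12 were readable, with a median of 0.88 at 24 h, 10 higher and 2 lower. Of the 12, 5 were at least 2-fold higher, against 1.99% of readable genes. Their later medians were 0.38 (36 h), 0.22 and 0.43 (48 h), and 0.39 and 0.24 (72 h). The 23 dim sets had a median of 0.22 at 24 h (range -1.12 to 1.89). Of these, 15 were higher, 8 lower and 5 at least 2-fold higher. Over all 22180 genes, readable and dim together, 267 were at least 2-fold higher at 24 h. The 4 readable H2A sets were all at least 2-fold higher at 24 h. The one with the highest difference, shared by 10 H2A genes, had log2 signals of 6.20 (control), 8.91 (24 h), 7.87 (36 h), 7.36 and 7.20 (48 h), and 7.52 and 7.06 (72 h). The 5 dim H2A sets name the same 10 genes and ran from -0.31 to 1.89 at 24 h.

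H3 was seen only through shared probe sets. A set of 8 H3 genes had 7.56 (control), 8.37 (24 h), 7.94 (36 h), 7.85 and 8.05 (48 h), and 7.93 and 7.83 (72 h). A set of 4 H3 genes had 5.47, 6.12, 5.62, 5.62 and 5.85, and 5.64 and 4.88 in the same order. Both were highest at 24 h and neither reached 2-fold, and the 10 dim H3 sets ran from -1.03 to 1.86 at 24 h. The readable set of 13 H4 genes was 0.82 above the control at 24 h and was highest on the second 72 h array, at 1.06. The single genes H4f16, H4c9 and H4c12 were instead highest at 24 h. H4c8 was nearly equal at 24 h (5.75) and on the second 48 h array (5.73).

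The shared H2B sets were divided like the single genes. A set of 4 H2B genes had 10.27 on the control and 11.22 at 24 h, whereas a set of 3 H2B genes had 10.70 (control), 9.92 (24 h), 10.06 (36 h), 10.11 and 10.32 (48 h), and 10.61 and 10.46 (72 h). In the latter the control was the highest array and the 24 h array the lowest, as in H2bc21. Its 72 h arrays were nearest to the control. A second readable set naming the same 3 genes had a different course. It differed from the control by -0.17 at 24 h. Its lowest array was the second of 48 h, at -0.52, and its highest the second of 72 h, at 0.05.

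**Figure D4:**
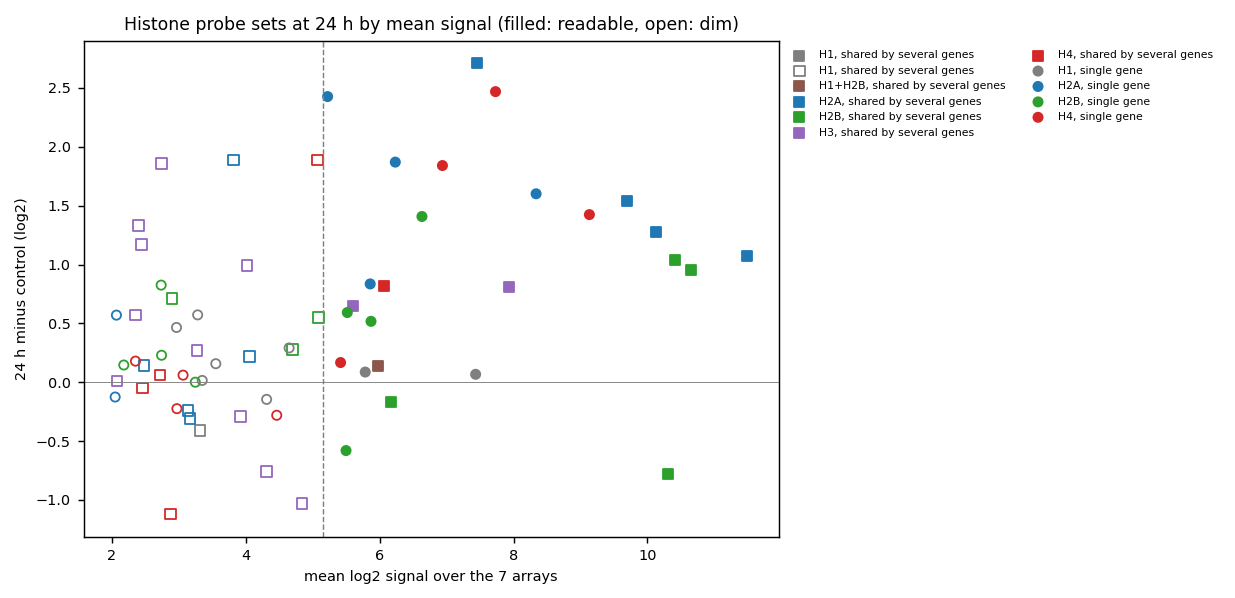
Difference between the 24 h and control arrays (y axis, log2) against mean log2 signal over the 7 arrays (x axis) for single-gene (circles) and shared (squares) histone probe sets, filled where readable, with the readable threshold of 5.16 as a dashed line. The 4 readable shared H2A sets lie above 1, and the shared H2B set at -0.78 and H2bc21 at -0.58 are the lowest readable points.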

How the data were processed

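Corpus RNA was measured on 7 arrays after conversion to biotin-labelled cDNA (Affymetrix WT Plus), per the labels' protocols. The authors deposited log2 signal for 41345 probe sets, made with RMA in Partek per the submitters' processing notes (no versions given in the sources used here). All 7 columns were used as deposited, with array medians from 4.56 to 4.71, and the per-sample columns not used number 0. Arrays have no read depth, and their number limits the precision.

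Of the probe sets, 23521 had 1 gene, 1814 several and 16010 none in the platform annotation; 1 probe set per gene left 22180 genes. All 30 histone genes matched RefSeq (GRCm38.p6) by Entrez identifier. Genes are named by role, by size of difference and by the fixed gene lists. H2bc14, H1f1, H2ac12, H1f5, H4c14, Jchain, Cd68, Ly6g, Adgre1, Csf1r, Cd4, Sdc1 and Srrt were singled out after their values were seen. The members and lists were chosen with earlier results of these data known. For 24 h and 36 h, differences from the control and 2-fold counts were taken. The 48 h and 72 h comparisons used R 4.3.3 and limma 3.58.1 (two-sided eBayes after lmFit, all genes, Benjamini-Hochberg threshold 0.05), with 2 residual and 1.15 prior degrees of freedom, and the slope per 24 h over the toxin arrays had 4 and 1.83. The fits were tested on simulated data. The design text calls the paired samples independent and names no animals, so p-values measure the spread between these arrays, which may be technical. Replicate numbers are shared by label only; across genes, which are not independent replicates, the difference within the 48 h pair correlated with that within the 72 h pair at -0.13. Alternatives covered scaling, the probe set and threshold rules, shared probe sets, the variance model, the genes tested, arrays left out and a replicate block.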

Additional observations from a re-analysis of the deposited data

How the results depend on the processing

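No histone gene was called under any alternative at 48 h, 72 h, 72 h against 48 h or in the slope. Over all genes, subtracting array medians called 167 at 48 h and 30 at 72 h against the control, quantile normalisation again 7 and 5, and all others 0. The median of the readable histone genes kept its sign except in the slope without the 24 h array (0.03) and at 72 h against 48 h without the first 72 h array (-0.07). The 24 h median (1.12) was 1.05 with array medians subtracted, 1.00 with the mean of a gene's probe sets, 0.84 with shared sets added (11 of 25 at least 2-fold higher), 0.84 with readable genes set by the mean of the arrays other than 24 h (chosen after seeing the data, without H2ac1), 1.60 over the 7 genes with a mean of at least 6, and 0.26 over all 30. The 36 h median (0.31) was 0.21 with medians subtracted, 0.62 at a mean of at least 6 and 0.24 over all 30; the 2-fold count of 0 became 1 with quantile normalisation, 2 with shared sets and 1 over all 30. The 48 h median (0.31) was 0.19 with medians subtracted, 0.18 with mean probe sets, 0.41 at a mean of at least 6 and 0.06 over all 30, and the 72 h median (0.36) was 0.28 with mean probe sets, 0.47 at a mean of at least 6 and 0.17 over all 30. The 72 h against 48 h median (0.05) was 0.11 with medians subtracted, and the slope median (-0.25) was -0.11 over all 30. At an unadjusted p under 0.05, shared sets raised the counts from those of 14 genes to those of 25. They became 10 at 48 h (from 5), 10 at 72 h (from 6), 2 at 72 h against 48 h (from 0) and 8 in the slope (from 3). Over all 22214 features of that fit the counts were 4388, 3985, 1572 and 1937. A mean of at least 6 gave 3 of 7 genes at 48 h and 1 in the slope, where 4375 and 1929 of all 22180 genes passed. Leaving out 1 array at a time, the medians ran from 0.28 to 0.31 at 48 h, 0.24 to 0.36 at 72 h, -0.07 to 0.13 at 72 h against 48 h and -0.36 to 0.03 in the slope, with unadjusted counts of 1 to 5, 2 to 6, 0 to 4 and 0 to 6. Single genes changed sign when the first array of a pair was left out: H2ac1 at 48 h ranged from -0.40 to 0.26, and at 72 h against 48 h H4f16 ranged from -0.18 to 0.71 and H4c12 was -0.02. The cause of these changes was not tested, beyond the fewer or other genes and arrays that each setting holds.

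With the replicate number as a block, the 72 h against 48 h median was 0.05, 0 genes were called and 1341 had an unadjusted p under 0.05, against 1569 without the block; it changed no call. A crossed block, chosen after seeing the data, called 0 genes with 1396 at an unadjusted p under 0.05. A difference from 1 control array and 1 array at 24 or 36 h has no replicate check, and dim signal limits 16 of the 30 genes.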
